A study of Mus musculus with 6 samples.

Results

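Imprinted genes are transcribed mainly from the allele inherited from the mother or from the allele inherited from the father. They lie in clusters, and each cluster is governed by an imprinting control region, a CpG-rich stretch of DNA that is methylated on only the maternal or only the paternal chromosome. The accessible sites of 9 such clusters were examined in primary mouse embryonic fibroblasts with and without HAT1, the acetyltransferase that modifies newly made histone H4 before it is assembled into chromatin. A site belonged to a cluster if its midpoint fell inside the window set for that cluster on mm10, and 526 of the 229903 sites in the table did so. The rule used position alone and no measured value.

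Chromatin accessibility had been profiled by ATAC-Seq, in which the Tn5 transposase cuts open chromatin and leaves sequencing adaptors there. The groups were 3 primary fibroblast lines labelled HAT1 WT and 3 labelled HAT1 KO, all on a C57bl6 strain background, and per the study's methods the embryos were taken between days 12.5 and 14.5 of development. KO embryos lack HAT1 throughout, so the cells had developed without it. The values of a site were 2 levels, each the log2 of the mean normalised read number over the lines of a genotype. Values of single lines were not analysed here, so no replicate error, interval or test can be given, and a difference (KO minus WT, log2) describes these means only. Since both parental chromosomes came from the same strain background, a level is the sum over both alleles, and a change on the silent allele cannot be told apart from a change on the active one. The sequencing depth behind the means is unknown.

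The labelled cell type was checked against its markers. All 8 fibroblast genes looked for, among them Col1a1, Pdgfra and Twist1, had a promoter site, with 44.6 to 626 normalised reads in WT and differences of -0.32 to 0.11. Of 10 genes of leukocytes, endothelium, epithelium, neurons and pluripotent cells, 9 also had a promoter site, at 6.28 to 124 reads in WT and with differences of -0.65 to 0.65. These included Cdh5 (66.7 reads in WT and 93.1 in KO), Cd68 (73.0 and 82.1) and Tubb3 (124 and 115), while no site lay at Neurod1. The part of other cell types in the results was not tested. The Hat1 promoter stayed open in KO, at 239 reads against 207 in WT, which checks nothing about the gene product.

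The imprinting control regions carry the DNA sequences that set these clusters apart, so a few of them are shown first. ZFP57 is a zinc finger protein that binds the methylated hexamer TGCCGC and protects the methylation of control regions in the early embryo. CTCF insulates the unmethylated maternal H19 control region and was searched by its core letters GGNGGCAG. YY1, which binds at the start of Peg3, was searched as GCCATNTT. Both strands were searched in the central 300 bases of each site, a window that runs past the ends of the narrower sites. The sequences below, read from RefSeq's GRCm38.p6 on the plus strand, have every match to the 3 motifs in capitals. They were chosen from the control sites with several matches.
H19 control region, chr7:142581774-142582073: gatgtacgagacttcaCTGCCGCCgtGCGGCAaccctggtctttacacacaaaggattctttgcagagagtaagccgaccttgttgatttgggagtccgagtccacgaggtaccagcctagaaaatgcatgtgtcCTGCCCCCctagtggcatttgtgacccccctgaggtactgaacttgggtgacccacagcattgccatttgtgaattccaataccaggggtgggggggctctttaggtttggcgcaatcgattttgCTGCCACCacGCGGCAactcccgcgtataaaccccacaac
Kcnq1ot1 start (KvDMR), chr7:143295612-143295911: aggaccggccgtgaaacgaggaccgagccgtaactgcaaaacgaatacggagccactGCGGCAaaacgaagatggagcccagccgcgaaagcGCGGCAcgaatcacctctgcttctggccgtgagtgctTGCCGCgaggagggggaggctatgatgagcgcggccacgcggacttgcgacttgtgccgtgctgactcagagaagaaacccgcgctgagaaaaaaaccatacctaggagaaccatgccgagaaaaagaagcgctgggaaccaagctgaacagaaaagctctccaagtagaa
Intergenic control region of Dlk1-Meg3 (IG-DMR), chr12:109528139-109528438: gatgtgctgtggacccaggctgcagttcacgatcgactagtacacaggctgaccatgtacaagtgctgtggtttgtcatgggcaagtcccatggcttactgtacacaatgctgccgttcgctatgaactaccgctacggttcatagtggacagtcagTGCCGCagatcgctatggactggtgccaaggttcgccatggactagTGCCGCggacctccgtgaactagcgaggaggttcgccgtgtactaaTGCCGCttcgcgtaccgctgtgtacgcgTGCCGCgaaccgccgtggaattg
Snrpn-Snurf start, chr7:60004997-60005296: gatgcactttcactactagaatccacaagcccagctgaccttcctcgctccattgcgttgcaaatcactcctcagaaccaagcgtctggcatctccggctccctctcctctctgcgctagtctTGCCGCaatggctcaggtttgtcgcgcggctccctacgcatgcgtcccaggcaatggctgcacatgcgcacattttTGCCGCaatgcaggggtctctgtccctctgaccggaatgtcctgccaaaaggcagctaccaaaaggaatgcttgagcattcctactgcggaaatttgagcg
Mest start, chr6:30737952-30738251: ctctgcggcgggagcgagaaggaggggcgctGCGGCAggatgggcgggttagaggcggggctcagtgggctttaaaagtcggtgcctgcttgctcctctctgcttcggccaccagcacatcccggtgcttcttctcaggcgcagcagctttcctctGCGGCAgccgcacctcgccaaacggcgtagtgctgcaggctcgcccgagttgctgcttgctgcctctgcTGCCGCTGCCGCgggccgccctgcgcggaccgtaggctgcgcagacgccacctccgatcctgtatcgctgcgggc
Peg3 intron close to the start, chr7:6729439-6729738: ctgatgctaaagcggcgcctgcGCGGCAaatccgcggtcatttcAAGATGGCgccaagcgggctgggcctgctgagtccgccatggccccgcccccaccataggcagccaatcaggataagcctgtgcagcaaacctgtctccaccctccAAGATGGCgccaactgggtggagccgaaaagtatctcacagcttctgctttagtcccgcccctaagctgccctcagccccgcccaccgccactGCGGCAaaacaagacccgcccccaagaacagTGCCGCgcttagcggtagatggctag

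The H19 window held 3 CTCF cores and 3 ZFP57 hexamers, and the Mest and IG-DMR windows held 4 hexamers each. The Peg3 window held 3 hexamers and 2 YY1 cores. In the control regions as a whole, 16 of 30 sites (53.3%) held the hexamer, compared with 15.3% of the promoter sites of all genes and 5.51% of all 229903 sites. The control windows were also richer in CpG, with a median of 18 CpG dinucleotides in 300 bases against 10 at all promoter sites and 3 at all sites. At least 1 hexamer was found in 10 of the 11 control regions. The region without was the Meg3 promoter, which was counted here beside the IG-DMR of the same cluster. The CTCF core was found in 20% of the control sites, 16.5% of all promoter sites and 11.7% of all sites, and the YY1 core in 6.67%, 5.13% and 4.83%. Regions were placed by annotated transcript starts and no methylation was measured, so a site counted here need not lie in the methylated stretch. Sites at later starts were kept, as for Meg3 (chr12:109549924-109550216, first start at 109541001) and Nespas (chr2:174284744-174284877, first start at 174295436). Farthest was 1 of the 30 sites, at an Airn start 75.5 kb from the first. Without this Airn site the hexamer was found in 15 of 29 sites (51.7%) and the CTCF core in 17.2%. CTCF core and hexamer can share letters: 2 of the 8 CTCF cores in control sites overlapped a hexamer. A match describes the letters and does not show that a factor binds there.

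The 526 sites of the imprinted clusters had nearly the same overall accessibility in both genotypes. The median level was 15.5 normalised reads in WT and 14.9 in KO, and the median difference was -0.07 (quartiles -0.37 and 0.25). Over all 229903 sites the median difference was -0.06, with quartiles of -0.37 and 0.25. A KO level at least 1 log2 unit below WT was seen at 25 sites (4.75%), against a background of 5.11% of all sites. A KO level at least 1 log2 unit above WT was seen at 12 sites (2.28%), against 2.82% of all sites. Both shares lay close to the background. When the median of all sites was set to 0, the counts were 21 lower (3.99%, beside 4.44% of all sites) and 16 higher (3.04%, beside 3.37%).

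**Figure D1:**
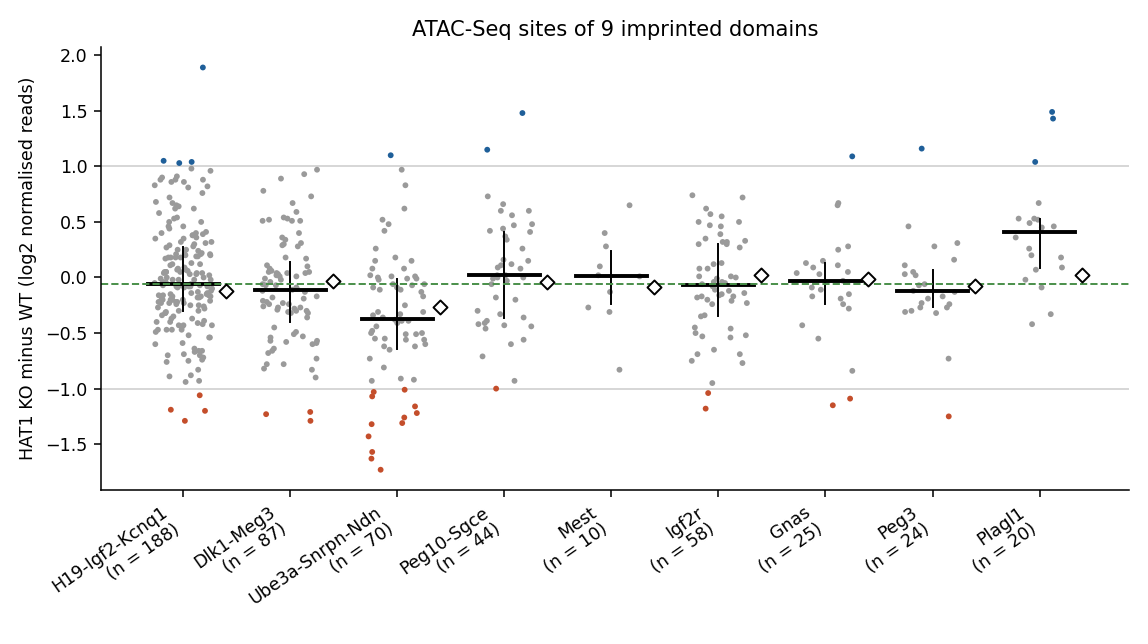
Difference in log2 normalised reads (HAT1 KO minus WT) at each of the 526 sites, by imprinted domain; black bars are medians with quartiles, diamonds are medians of the flanks of 1 Mb on each side, and the dashed line is the median of all sites. Red points are sites at -1 or below and blue points sites at 1 or above. The Ube3a-Snrpn-Ndn median of -0.37 is the lowest and the Plagl1 median of 0.41 the highest.

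The clusters were not alike. Ube3a-Snrpn-Ndn, the cluster deleted in Prader-Willi and Angelman syndromes in humans, had the lowest median difference, -0.37 over 70 sites. It held 12 of the 25 sites that were lower by 1 or more, 17.1% of its sites beside 5.11% of all sites. The remaining 8 clusters had medians from -0.13 (Peg3) to 0.41 (Plagl1). Together 13 of their 456 sites (2.85%) were lower and 11 (2.41%) higher by 1 or more, beside 5.11% and 2.82% of all sites. Summed over its sites, a cluster kept between 83.9% (Ube3a-Snrpn-Ndn) and 108% (Plagl1) of its WT reads in KO, compared with 94.8% over all sites. The summed reads were 85.3% of WT in Gnas, 91.1% in Dlk1-Meg3, 93.8% in Peg3, 94.3% in H19-Igf2-Kcnq1, 94.5% in Igf2r, 97.3% in Peg10-Sgce and 100.1% in Mest.

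The values were also grouped by kind of site. At the 129 sites within 1 kb of any transcript start the median difference was -0.17, and 89 (69.0%) were below 0, compared with -0.08 and 60.3% at the 38205 promoter sites of all genes. Intergenic sites of the clusters, 149 in number, had a median of 0.00 with 73 below 0. Of the 25 lower sites, 8 were at promoters, 9 in introns and 8 between genes. The 8 lower sites were 6.20% of the 129 promoter sites, beside 2.58% of all promoter sites. Of the 8, 5 were in Ube3a-Snrpn-Ndn, 22.7% of the 22 promoter sites of that cluster. None of the 12 higher sites was at a promoter, where 1.40% of all promoter sites were higher.

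Sites past the threshold were mostly weak. The median of the 25 lower sites was 13.5 reads in WT and 6.23 in KO, and 8 of them had a mean level of at least 16 reads. The 12 higher sites had medians of 5.08 and 10.6 reads, and none reached a mean of 16 reads. The largest positive difference, at an exonic site of the H19-Igf2-Kcnq1 cluster (chr7:143279970-143280077), went from 1.85 to 6.87 reads, a difference of 1.89. Next came an intergenic site in the Plagl1 cluster (chr10:13036468-13036741), with 3.48 and 9.78 reads. At such levels the spread of the difference over all sites was wide: with a log2 level under 3, its 5th and 95th percentiles were -1.31 and 1.21, compared with -0.55 and 0.31 at a level of 6 and above. Against the range for their own level class, 22 sites of the clusters lay below and 21 above, in all 43 of 526 (8.17%). By construction about 5% of all sites of a class lie on each side of that range, so these counts were not above the background. Of the 22 below, 10 were in Ube3a-Snrpn-Ndn, 14.3% of its 70 sites, and none of its sites lay above.

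**Figure D2:**
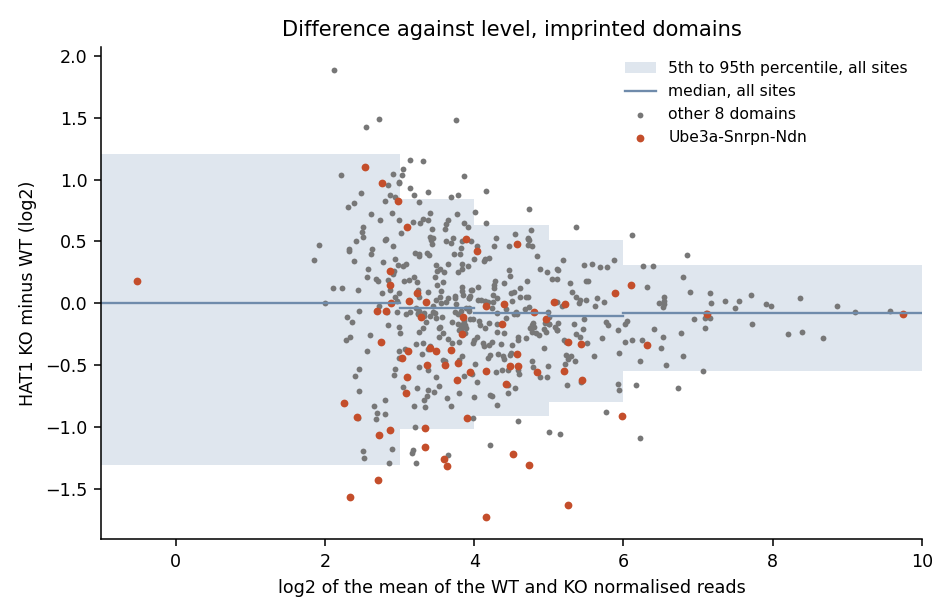
Difference (HAT1 KO minus WT, log2) against the log2 of the mean of both genotypes' normalised reads at the 526 sites; shading spans the 5th to 95th percentile of all 229903 sites in each of 5 level classes and the blue line is their median. By construction about 5% of all sites lie on each side of the shading. Sites of Ube3a-Snrpn-Ndn (red) make up 10 of the 22 points under the shading, 14.3% of its 70 sites, and none of the 21 above it.

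The control regions themselves, where parental methylation is kept, differed about as little between genotypes as all sites did. All 11 regions held at least 1 accessible site, 30 in all, with a median difference of -0.11, the same without the distant Airn site. Of these, 17 (56.7%) were below 0 and 13 above, 20 were within 0.5 of 0, and none reached 1 in either direction. Over all sites the median was -0.06, 55.0% were below 0, and 5.11% were lower and 2.82% higher by 1 or more. With such shares, the absence of a site past 1 among 30 does not set the control regions apart. Their quartiles were -0.295 and 0.178, beside -0.37 and 0.25 for all sites. In H19-Igf2-Kcnq1, the H19 control region had a site with 49.5 reads in WT and 60.5 in KO (difference 0.29) and, farther from H19, the printed site with its CTCF cores, which had 22.8 and 17.1 (-0.41). The KvDMR, the control region from which the antisense RNA Kcnq1ot1 is transcribed, had 241 reads in WT and 239 in KO at its main site and 24.4 and 27.7 at the printed site. Airn, the antisense RNA that silences Igf2r in cis, had 142 reads in WT and 131 in KO at its start, while a weak site upstream had 12.0 and 20.1, a difference of 0.74. Nespas, the antisense RNA of the Gnas cluster, had 119 and 100 reads, and a pair of weak sites close to another of its starts had differences of 0.65 and 0.67 from 7.52 and 6.15 reads in WT. Mest had 46.2 and 42.2 reads, Plagl1 115 and 123, and Peg3 163 and 165 at its start with 129 and 118 at the printed site. No region moved as a whole by 1, and within several regions sites differed in direction.

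The exceptions to this mixed pattern were the starts of Meg3 and of Peg10. Meg3, the maternally expressed long non-coding RNA of its cluster, had 5 promoter sites, and all 5 were lower in KO, by differences of -0.27 to -0.66. The site over its first start had 88.0 reads in WT and 55.7 in KO. By contrast, 3 of the 4 sites in the IG-DMR, the methylated control region upstream of Meg3, were higher in KO, with differences of 0.67, 0.17, 0.51 and -0.10 from WT levels of only 5.17 to 11.3 reads. At the shared start of Peg10, a retrotransposon-derived gene, and Sgce, which codes for a sarcoglycan, all 3 sites were lower, by -0.30, -0.56 and -0.42. The Snrpn-Snurf start was split, with 65.3 reads in WT and 72.5 in KO (0.15) over the longer site and 43.7 and 29.9 (-0.55) at the printed site. The 16 control sites with a ZFP57 hexamer had a median difference of -0.05 and the 14 without one -0.17, with ranges of -0.56 to 0.67 and -0.66 to 0.74 that overlapped almost fully.

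**Figure D3:**
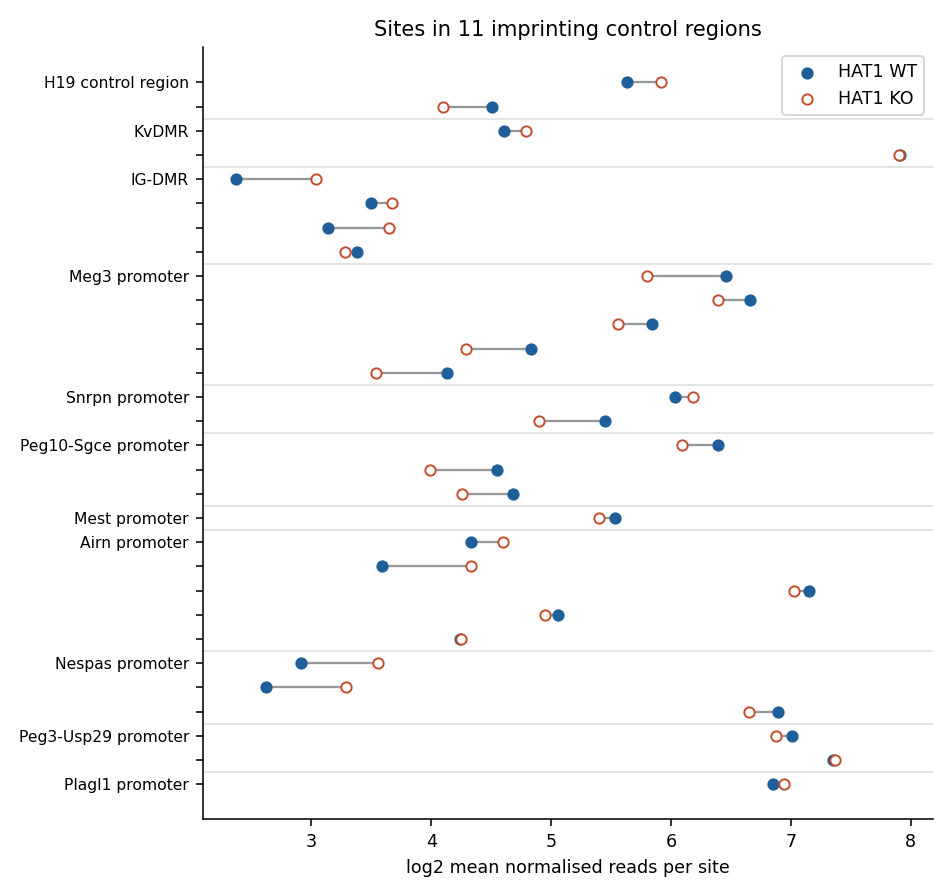
Log2 mean normalised reads in HAT1 WT (filled) and HAT1 KO (open) at each of the 30 sites in 11 imprinting control regions, in chromosome order within a region. All 5 Meg3 and all 3 Peg10-Sgce sites are lower in KO, and no pair of points is 1 log2 unit apart.

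Of 41 imprinted genes listed for the clusters, 37 had a transcript start inside their window and 35 of these a site within 1 kb of a start. Rtl1 and Ndn had none, although a site with 89.3 reads in WT and 70.5 in KO lay inside the single annotated exon of Ndn. The 77 promoter sites of these genes had a median difference of -0.19, with 58 (75.3%) below 0, 3 lower by 1 or more (3.90%) and 0 higher. All promoter sites of the table had a median of -0.08, with 60.3% below 0, 2.58% lower and 1.40% higher. The counts past 1 thus lay close to that background, while the share below 0 was above it. Taken by gene at the strongest promoter site, 26 of the 35 were below 0 and 8 above, and 30 lay within 0.5 of 0. Some genes share that site, and with shared sites counted once 25 of 32 (78.1%) were below 0 and 6 above. Sites of maternally expressed genes (34) had a median of -0.26 and those of paternally expressed genes (32) of -0.16, and the quartiles, -0.56 and -0.01 against -0.35 and 0.01, overlapped. The 34 include 5 sites of Meg3, 2 of Rian and 4 of Mirg, all from Dlk1-Meg3. The medians were not split by cluster, so expressed allele and cluster cannot be told apart here.

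Growth regulators are the best known products of these clusters. Igf2, a paternally expressed growth factor, had 44.6 reads in WT and 37.5 in KO at its strongest promoter site, and Igf2r, the receptor that removes it and is expressed from the maternal allele, had 88.6 in both genotypes. H19, the maternal non-coding RNA next to Igf2, had 40.5 and 41.9. Cdkn1c, a maternally expressed inhibitor of the cell cycle, had 141 and 133. Phlda2, which restrains placental growth, had 35.5 and 23.4 (-0.60), with 1 of its 3 promoter sites higher in KO (0.65). Plagl1, a zinc finger transcription factor, had a difference of 0.09, and Dlk1, a membrane protein of the Notch ligand family, had 17.6 and 14.3 reads (-0.30). Ins2, an insulin gene of pancreatic beta cells, had the lowest promoter value of the listed genes, 13.2 and 5.39 reads (-1.29).

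Other listed genes code for signalling proteins, enzymes and transcription factors. The strongest site in the Gnas cluster, at the start of the G protein alpha subunit transcript, had 449 reads in WT and 370 in KO (-0.28), equal to 258 and 213 reads per kb of site. Ube3a, a ubiquitin ligase imprinted in neurons, had the most reads per kb of its own cluster's promoters, 649 and 609. Tssc4 had 552 and 545 reads per kb and Zim1, a zinc finger gene, 656 and 559. Ascl2, a transcription factor of the placenta, had 70.0 and 53.1 reads (-0.40) at its main promoter site and 5.03 and 8.94 at a weak one. Cd81, a tetraspanin, had 322 and 271 (-0.25), Usp29 shared its main site with Peg3, and Copg2, a coatomer subunit gene, had 186 and 189. Among 35 genes, the strongest promoter site was past 1 only at Ins2 and Rian.

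**Figure D4:**
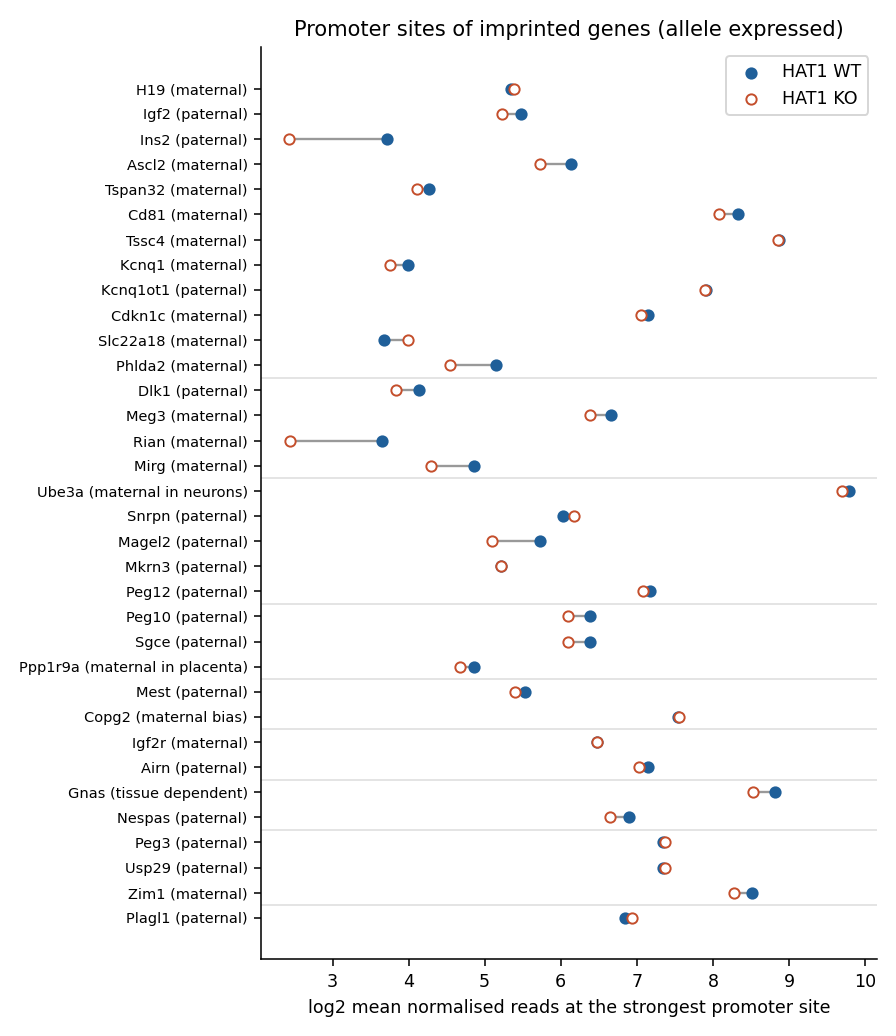
Log2 mean normalised reads in HAT1 WT (filled) and HAT1 KO (open) at the strongest promoter site of each imprinted gene with one, grouped by cluster, with the expressed allele in brackets; Snurf shares the site of Snrpn and is left out. Ins2 and Rian show the longest gaps, -1.29 and -1.21, both from levels of 12.6 to 13.2 reads in WT.

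In the Dlk1-Meg3 cluster the maternal chromosome is transcribed into a chain of non-coding RNAs, Meg3, Rian and Mirg, which host many small nucleolar RNAs and microRNAs. The 26 promoter sites of the cluster kept 79.7% of their WT reads in KO, with a median difference of -0.27 and 18 below 0, whereas the 48 intergenic sites kept 95.1% with a median of -0.05. The flanks of the cluster had a median of -0.04. Mirg had 29.0 reads in WT and 19.6 in KO (-0.57) at its strongest site, and Rian, the host of small nucleolar RNAs, had 12.6 and 5.43 (-1.21). Of 13 promoter sites whose nearest gene was a microRNA gene, 8 were below 0 and 5 above, with a median of -0.17. Those near Mir493 (-0.82), Mir3072 (-0.78) and Mir154 (-0.58) were lower, whereas those near Mir431 (0.53) and Mir369 (0.31) were higher. The strongest site of the cluster lay between genes upstream of Dlk1, with 326 and 335 reads. These groups were formed by annotation, and the lower values of promoter sites rested on sites with 5.24 to 101 reads in WT. The groups overlap. The 5 Meg3 sites described above are among the 26, include the strongest of them and so weigh heavily in the summed reads. The sites near Mir154, Mir369 and Mir3072 are also promoter sites of Mirg.

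Ube3a-Snrpn-Ndn was the most sparsely accessible of the 9 windows, with 21.2 sites per Mb against 50 to 232 per Mb in the others, and its sites had the lowest median GC content, 45.2% in the central 300 bases. Ube3a is expressed there from the maternal allele in neurons, and Snrpn, Ndn, Magel2, Mkrn3 and Peg12 from the paternal allele. Of the 70 sites, 53 (75.7%) were below 0 in KO, beside 55.0% of all sites. The difference did not stop at the window: the flanks of 1 Mb on each side had a median of -0.27 over 112 sites. Of these, 14 (12.5%) were lower by 1 or more, beside 5.11% of all sites.

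A running mean of the difference over 25 neighbouring sites, the measure by which the study had defined its domains of HAT1-dependent accessibility, was below -0.58 at 12 sites of the imprinted clusters (2.28%), all of them in Ube3a-Snrpn-Ndn. Over all sites outside chromosome Y this share was 2.25%, close to that of the clusters. In the flanks of Ube3a-Snrpn-Ndn 6 further sites were below -0.58. The 12 sites lay within chr7:61873712-62348800, a span of 475 kb from the Mir344 genes to Ndn, where the running mean reached -0.66. In the other 8 clusters its lowest value was -0.29. With 51 sites in the mean, 0 sites of the clusters were below -0.58.

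**Figure D5:**
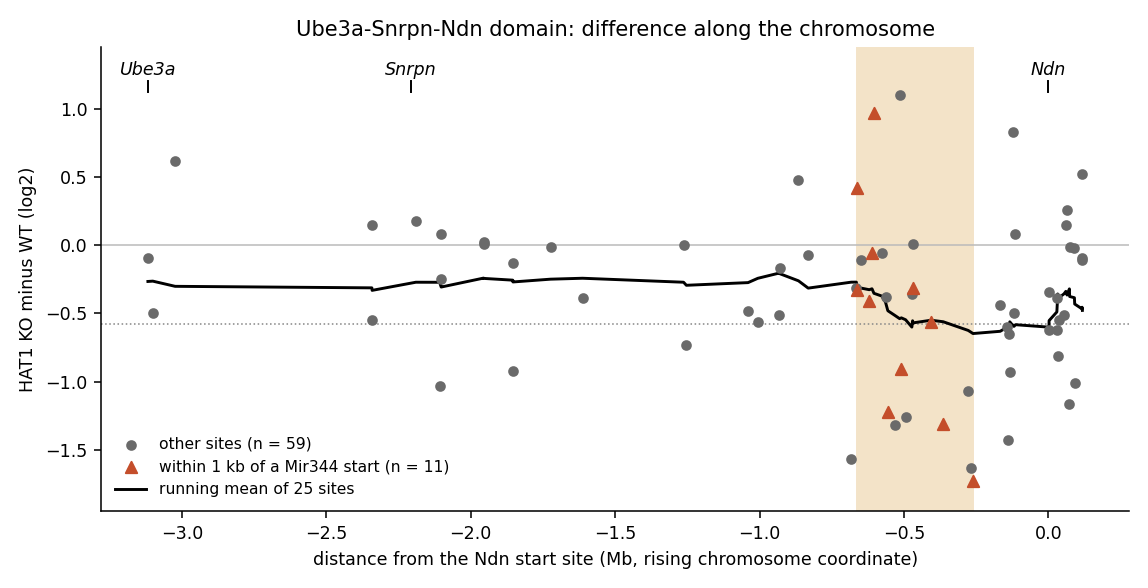
Difference (HAT1 KO minus WT, log2) at the 70 sites of the Ube3a-Snrpn-Ndn window against distance from the Ndn start site in Mb; triangles are the 11 sites within 1 kb of a Mir344 start, the shaded band is the span of the Mir344 genes, the line is the running mean of 25 sites and the dotted line marks -0.58. The running mean passes below the dotted line within the band and stays near it as far as Ndn, while the 5 sites from Ube3a to Snrpn have a median of -0.09.

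The pieces of the cluster differed in how many reads they kept, beside 94.8% over all sites. From Ube3a to the most upstream annotated Snrpn start there were 5 sites with a median of -0.09, and 94.0% of their reads were kept. Between that start and the first Mir344 gene 19 sites had a median of -0.17, with 88.8% kept. The Mir344 genes with 10 kb on each side held 22 sites, with a median of -0.37 and 62.8% of the reads kept. Of these, 7 (31.8%) were lower by 1 or more, beside 5.11% of all sites. From the last Mir344 gene to Ndn 8 sites had a median of -0.55 and kept 71.2%, and from Ndn to Peg12 16 sites had a median of -0.37 and kept 83.6%. These pieces were marked out after the values had been seen and carry no test.

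Protein-coding genes at the far end differed among themselves. Magel2, whose product regulates a ubiquitin ligase on endosomes, had 52.7 reads in WT and 34.3 in KO (-0.62). Peg12 had 144 and 135 (-0.09). Mkrn3, a gene for a ring finger protein that delays puberty, had 37.3 and 37.0 at its start, but 13.9 and 6.23 (-1.16) at a second site inside the same 1 kb.

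The 2 lowest values of all 526 sites lay among the Mir344 genes, a family of microRNA genes repeated along the cluster. They are described because of these values, and so as a description only. Of 13 annotated Mir344 genes, 11 had a site within 1 kb of the start. Of the 11 sites, 9 (81.8%) were lower in KO, 3 (27.3%) by 1 or more. At the promoter sites of all genes these shares were 60.3% and 2.58%. Mir344i had 27.5 reads in WT and 8.28 in KO (-1.73), Mir344g 38.1 and 15.3 (-1.31), and Mir344b 32.0 and 13.7 (-1.22). Mir344c, the strongest, had 82.7 and 44.0 (-0.91). Smaller differences were seen at Mir344-2 (-0.56), Mir344d-3 (-0.41), Mir344d-2 (-0.33), Mir344 (-0.31) and Mir344e (-0.06), and Mir344d-1 (0.42) and Mir344h-2 (0.97) were higher. A site at the small RNA gene Gm24923, between Mir344f and Mir344i, had 57.7 and 18.6 reads (-1.63), the second lowest value.

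All 13 genes matched a RefSeq entry, with 19 mature sequences in all. Of these, 6 from 7 of the genes, all 5p arms, have the seed GUCAGGC, the bases 2 to 8 that pair with target RNAs, and the 5p or only arms of the other genes have other seeds, such as AGGCUUC in miR-344e and miR-344h. Mature sequences of genes with the lowest sites are shown with the seed in capitals.
miR-344-5p: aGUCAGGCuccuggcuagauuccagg
miR-344b-5p: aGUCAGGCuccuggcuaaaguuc
miR-344c-5p: aGUCAGGCugcuggcuagaguac
miR-344g-5p: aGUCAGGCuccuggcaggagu
miR-344i: aAGUCAGGcuccuggcugga

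The sequence of miR-344i begins 1 base farther upstream than the others, so that its seed reads AGUCAGG. A shared seed did not go with a shared difference, since miR-344d-1-5p, from the gene with a higher site, has the seed GUCAGGC as well. In 6 of the 11 site windows the mature microRNA sequence lay inside. In the windows of Mir344i and Mir344g, printed on the plus strand of GRCm38.p6, capitals mark the bases that code for mature microRNA, which is read from the minus strand.
Mir344i site, chr7:62085193-62085492: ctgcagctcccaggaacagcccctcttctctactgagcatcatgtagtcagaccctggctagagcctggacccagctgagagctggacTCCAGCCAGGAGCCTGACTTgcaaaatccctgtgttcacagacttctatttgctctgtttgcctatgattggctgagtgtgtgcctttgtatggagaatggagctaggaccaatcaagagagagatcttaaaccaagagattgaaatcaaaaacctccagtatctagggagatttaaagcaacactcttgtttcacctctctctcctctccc
Mir344g site, chr7:61982248-61982547: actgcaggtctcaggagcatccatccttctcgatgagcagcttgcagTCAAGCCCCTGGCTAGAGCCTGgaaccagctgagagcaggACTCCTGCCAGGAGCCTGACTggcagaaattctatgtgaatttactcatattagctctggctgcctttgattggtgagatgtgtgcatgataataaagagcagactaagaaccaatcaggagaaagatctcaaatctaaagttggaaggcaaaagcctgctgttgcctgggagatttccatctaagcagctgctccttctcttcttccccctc

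None of the 11 Mir344 windows held a CTCF core, a ZFP57 hexamer or a YY1 core, and they were poor in CpG, with a median of 1. They shared other letters, noticed on reading them: CCAATCA, on either strand, stood in 10 of the 11 windows and in 3.42% of all sites, and AGATCTC in 8 of the 11 and in 3.54% of all sites. GATTGGNG was found in 4 of the 11 and in 2.16% of all sites. It shares the letters GATTGG with the reverse strand of CCAATCA, so these 2 counts are not separate. The genes are copies of each other, so the windows are not independent. CCAATCA stood in the windows of both sites that were higher in KO as well. With 9 of the 11 sites lower in KO, no link between any of these letters and the direction of the difference can be drawn. Reads from near-identical copies can be hard to place, and how such reads were counted is not given in the sources used here.

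Plagl1 was the cluster with the highest median, 0.41 over 20 sites, of which 16 were above 0. Its flanks had a median of 0.02. Its strong sites hardly differed: the Plagl1 start had 115 reads in WT and 123 in KO, the Ltv1 start 205 and 215, and a site near Sf3b5 254 and 251. The 3 sites higher by 1 or more had 3.03 to 3.48 reads in WT. With windows extended by 0.25 Mb on each side the median was 0.05, and from summed reads the log2 ratio was 0.11.

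The remaining clusters are described by their widest differences among sites with a mean of at least 16 reads. In Gnas, an intergenic site at the edge of the window (chr2:174199695-174200748) had 101 reads in WT and 47.5 in KO (-1.09), the strongest site of all clusters that was lower by 1 or more, and an intronic site of Gnas had 25.6 and 11.6 (-1.15). The median of Gnas, -0.03, did not carry these, and its log2 ratio of summed reads was -0.23. In Igf2r, an intronic site of the receptor gene had 43.1 and 21.0 reads (-1.04), and in H19-Igf2-Kcnq1 an intronic site of Kcnq1 (chr7:143375913-143376335) had 47.8 and 22.9 (-1.06). Peg10-Sgce, Mest and Peg3 had no such site past 1, their lowest values being -0.60, -0.31 and -0.31. The highest values of this kind were 0.91 in H19-Igf2-Kcnq1 (12.4 and 23.3 reads), 0.74 in Igf2r, 0.65 in Mest and 0.59 in Dlk1-Meg3. Several of the strongest sites were nearly equal in both genotypes, with 564 and 537 reads at Nap1l4, 776 and 744 in an intron of Peg3, 224 and 199 in an intron of Igf2r, and 145 in both genotypes in an intron of Peg10. The strongest Gnas site, given above, differed by -0.28.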

How the data were processed

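ATAC-Seq libraries of 3 HAT1 WT and 3 HAT1 KO primary fibroblast lines were processed by the authors, per the study's methods with the ENCODE ATAC-Seq pipeline. Per the labels and methods, reads were aligned to mm10 with Bowtie2, peaks were called with MACS2 and sites were compared with DiffBind 2.14.0. The authors deposited, for each of 229903 sites, the log2 of the mean normalised reads of each genotype. How libraries were scaled and sites merged is not given in the sources used here. The deposited table also holds the authors' fold changes, p-values and false discovery rates, which were not used. Depth per sample is unknown from these values, and with genotype means only no test was made.

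KO minus WT differences were computed from the 2 log2 values with pandas 2.3.3 and numpy 2.4.6 in Python 3.11.15. Sites were assigned by midpoint to the 9 windows. Promoter sites had their midpoint within 1 kb of a GENCODE vM21 transcript start. Sites were named if they lay in a control region, at a listed gene's promoter (the strongest given), were the strongest, lowest or highest of a cluster at a log2 level of at least 4, or were the 2 largest differences each way. Other sites named, and all Mir344 and Dlk1-Meg3 microRNA sites, were chosen after their values were seen. Sequences were read with pysam 0.24.0. Windows, gene lists and control regions were chosen with earlier results of these data known. Only the window medians and the running mean were tested on simulated data, with known shifts and noise of the same size at every site. The other steps were not tested in this way.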

Additional observations from a re-analysis of the deposited data

How the results depend on the processing

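Medians were counted as moved at 0.1 log2 or more and counts at more than 1.5 times. Of 92 recomputed values 78 did not move. Centring on all sites and overlap by 1 bp in place of the midpoint moved none, and leaving out each domain in turn kept the overall median between -0.09 and -0.04. Without the lowest 25% of levels 4 sites were higher by 1 or more and the Plagl1 median was 0.28. With 1 read added to both genotypes 6 sites were higher. With windows extended by 0.25 Mb, 52 sites were lower and 27 higher, and the medians were -0.09 in Mest and 0.05 in Plagl1. The total of sites in the wider windows was not recorded, so no share is given. At a threshold of 0.58, 76 of the 526 sites were lower and 54 higher, beside 34461 and 23308 of all 229903 sites. Wider windows and a lower threshold can only take in more sites, so these counts could not fall. The ratio of summed reads was -0.25 in Ube3a-Snrpn-Ndn, -0.23 in Gnas and 0.11 in Plagl1. With 51 sites averaged 0 sites had a running mean below -0.58. Without the Ube3a-Snrpn-Ndn domain, an alternative chosen after seeing the data, 13 sites were lower. Leaving out the distant Airn site, also chosen after seeing the data, gave a control-site median of -0.11. The cause of the other moves was not tested.

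No paired analysis was possible because the table holds genotype means without values of single lines. For the same reason no line was left out. The precision of every value is unknown, and weak sites, whose differences scatter most over the genome, make up most sites past the threshold.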
